A study of Mus musculus with 48 samples.

Results

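Antigen receptor loci are the stretches of the genome that encode antibodies and T cell receptors. The 188 regions described here, of 95882 in all, are the regions of the deposited peak list that start inside 6 spans of the mouse genome (build mm10). They comprise 70 regions at the antibody heavy chain locus Igh on chromosome 12, 43 at the kappa light chain locus Igk on chromosome 6 and 2 at the lambda light chain locus Igl on chromosome 16. The T cell receptor loci held 55 regions at Tcra and Tcrd on chromosome 14, where Tcrd lies inside Tcra. They also held 8 at Tcrb on chromosome 6 and 10 at Tcrg on chromosome 13. The other 95694 regions serve as the background. In this MBD-seq study a protein domain that binds methylated CG pairs pulled down DNA from 4 intestine sections (Duodenum, Jejunum, Ileum, Colon) of 7 GermFree mice, raised without microbes, and 5 ConvR (conventionalised) mice. Each mouse gave 1 library per section, 48 in all. The labels state no strain, sex or age, and no fraction of the tissue.

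B and T lymphocytes assemble each receptor gene by V(D)J recombination, in which the recombinase Rag1 and Rag2 joins 1 variable (V) segment, at some loci 1 diversity (D) segment, and 1 joining (J) segment, and the DNA between them is mostly lost or inverted. Antibody heavy chains then change class when a further deletion places another constant (C) gene beside the assembled V segment. The intestine is rich in lymphocytes, among them plasma cells that secrete antibodies of the IgA class, while its epithelial, muscle and other cells keep the loci in the unrearranged form. In all libraries a level therefore reflects methylation as well as the number of copies of a stretch, and less methylation, fewer copies and another mix of cells cannot be told apart in these bulk samples. Levels are given in CPM, in which the counts of a region are divided by the library total, adjusted with TMM factors, and differences as log2 ratios.

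Sequences were at hand from RefSeq (GRCm38.p6, the coordinates of mm10) for gene starts and microRNA hairpins. Inside the 6 spans lay 43 promoter windows of 42 gene symbols, each 250 bases before to 50 bases after a start, and 1 of them (2.33%) overlapped a region, against 8.57% of all 32851 windows. These windows held a median of 1 CG, against 7 CG over all windows. The overlapping window is that of 1700074P13Rik in the Tcrb span (chr6:40940508-40940807, minus strand, 8 CG), inside the region chr6:40939055-40941287. It is shown beside the window of Dad1, a subunit of the enzyme that attaches sugar chains to proteins, which lies just past the Tcra constant gene (chr14:54253880-54254179, minus strand, 24 CG) and overlapped no region. Over the genome, 7.23% of windows with 0 to 4 CG overlapped a region, against 22.4% with 5 to 9 CG and 3.88% with 10 or more CG. The third sequence is the hairpin of Mir7094-2 (chr12:114513635-114513694, minus strand), which lies with Ighv1-5 inside the 9346 bp region chr12:114506348-114515693 of Igh and holds 0 CG over its 60 bases. Capitals mark each CG, the pair of bases that the capture recognises when methylated, which reads the same on both strands.
1700074P13Rik: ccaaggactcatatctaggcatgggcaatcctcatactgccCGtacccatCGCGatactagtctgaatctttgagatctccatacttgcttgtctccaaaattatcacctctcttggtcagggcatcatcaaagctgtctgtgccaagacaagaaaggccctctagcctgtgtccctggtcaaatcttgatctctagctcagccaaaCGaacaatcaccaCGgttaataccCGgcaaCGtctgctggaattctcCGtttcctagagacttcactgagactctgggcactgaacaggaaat
Dad1: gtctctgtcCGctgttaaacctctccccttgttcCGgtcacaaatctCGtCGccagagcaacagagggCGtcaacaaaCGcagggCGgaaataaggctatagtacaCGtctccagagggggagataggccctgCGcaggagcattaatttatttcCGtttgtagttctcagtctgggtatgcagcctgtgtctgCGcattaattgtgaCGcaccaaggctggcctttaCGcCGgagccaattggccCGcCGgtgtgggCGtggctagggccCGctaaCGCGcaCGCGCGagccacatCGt
Mir7094-2: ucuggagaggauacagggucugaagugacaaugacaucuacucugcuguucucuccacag

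Captured regions were spread unevenly over the gene segments. Igh held 24.1 regions per Mb, against 38.4 per Mb over the autosomes, yet its regions were wide, with a median of 2646 bp (417 to 10541 bp) against 1208 bp over all regions. They touched 24 of 183 annotated V segments, 4 of 20 D segments, 0 of 4 J segments and 4 of 8 constant genes. Igk held 13 regions per Mb with a median width of 879 bp, and touched 1 of 162 V segments, 5 of 5 J segments and its constant gene Igkc. The region over Igkj1 to Igkj5 and Igkc (chr6:70722567-70726833) averaged 19.9 CPM. The 2 Igl regions (chr16:19041150-19042944 and chr16:19083242-19083746) touched 0 of 12 segments, and the second lay 1271 bp from Iglv1. Regions of Tcra/Tcrd touched 6 of 136 V, 1 of 2 D, 12 of 62 J and 0 of 2 C segments. Those of Tcrb touched 2 of 14 J segments, Trbj1-1 and Trbj1-2, both in chr6:41533664-41534262, and 0 of 35 V segments. Those of Tcrg touched 1 of 15 segments, the constant gene Trgc2. The widest gap between Igh regions, 383360 bp, lay between the V segments Ighv5-13 and Ighv14-4, and it divides the V segments nearer to the D segments from those farther away in what follows. Per kb of region, the loci were alike: the median region held 6.21 CPM per kb at Igh, 6.84 at Igk, 6.48 at Tcra/Tcrd, 5.48 at Tcrb and 5.89 at Tcrg.

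The most strongly captured region of Igh, chr12:113713307-113719738 over the V segment Ighv2-6, averaged 64.1 ± 12.8 CPM (SD over 48 libraries), or 9.97 CPM per kb. The widest, chr12:114491037-114501577 over Ighv10-2, spanned 10541 bp and averaged 63.4 CPM. The most densely captured Igh region, chr12:113703192-113706909, lay 773 bp from Ighv5-12 and held 10.3 CPM per kb, and the least densely captured, chr12:115771762-115775208 over Gm9251, held 3.67 CPM per kb. At Igk the widest region was also the highest, chr6:67671041-67681064, with 10024 bp and 68.6 CPM, 29345 bp from the nearest annotated gene. The highest Tcra/Tcrd region, chr14:53572163-53579830, lay 6641 bp from Trav3-2 and averaged 48.1 CPM, and the widest, chr14:53540272-53548075 over Trav13-1, spanned 7804 bp. The highest of Tcrb, chr6:41196862-41200260 near Trbv21, averaged 17.3 CPM, and the highest of Tcrg, chr13:19305051-19308066 over Trgc2, 15.2 CPM. V segments come in families of near-identical copies, and the labels do not say how reads that match several copies were placed, so the value of a single region within such a family is uncertain.

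Library totals ran between 1007560 and 3033782 counts with a median of 2122529, and the 188 regions together held 0.177% to 0.296% of a library. The median member held 16 counts per library, which limits the precision of a single region. The authors named every region after GermFree, and if only GermFree libraries served to call them, DNA captured mainly in ConvR mice would be missed. Several libraries stood apart: ConvR mouse 3 was low at Igh in Duodenum, Ileum and Colon, and GermFree mouse 4 in Ileum. Summed levels of whole loci are given with and without them where they move a value by over 1.5 times. The loci are first described by section and then by mouse model.

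Igh carried more captured DNA in the Colon than in the Ileum and the Duodenum. Its 70 regions summed to between 769 and 1546 CPM in Duodenum (median 1121), between 982 and 1439 CPM in Jejunum (median 1227), between 753 and 1382 CPM in Ileum (median 1203), and between 890.1 and 1640.0 CPM in Colon (median 1490.3) over the 12 mice. The section ranges overlapped, but within each mouse the Colon stood above the Ileum in 12 of 12 mice and above the Duodenum in 12 of 12. The mean log2 ratio was 0.35 (SD 0.23, lowest 0.20, highest 1.02) for Colon over Ileum and 0.34 (SD 0.21, lowest 0.08, highest 0.69) for Colon over Duodenum. The highest Colon over Ileum ratio was that of GermFree mouse 4, with 1632 CPM in Colon and 802 CPM in Ileum. The log2 ratio of the section means was 0.34 for Colon over Ileum, 0.29 without GermFree mouse 4 and 0.35 without ConvR mouse 3. Colon over Jejunum was lower and less even, with a mean log2 of 0.24 (SD 0.30) and the Colon higher in 10 of 12 mice. There the 7 GermFree mice averaged 0.36, all above 0, and the 5 ConvR mice 0.06, with 3 of 5 above 0. Without ConvR mouse 3 the other 4 ConvR mice averaged 0.19, with 3 of 4 above 0. Whether the models differ here was not tested for the summed level. Region by region, a joint edgeR test of whether the model difference varied with section called 0 of the 70 Igh regions (0% of all regions).

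**Figure D1:**
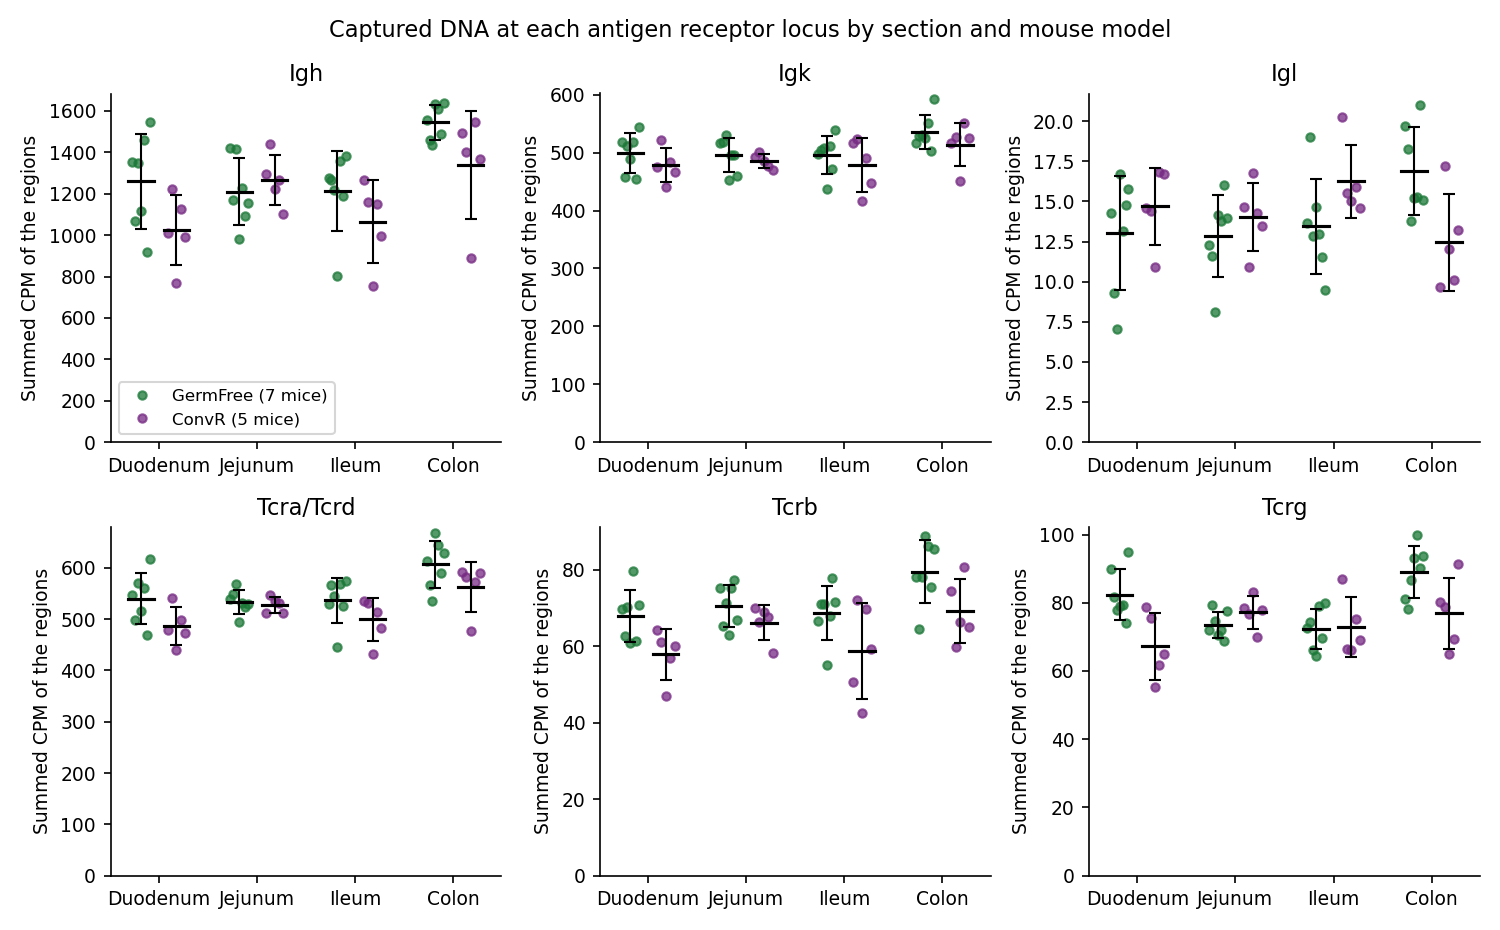
Summed CPM over the regions of each locus (vertical axis, from 0) by section (horizontal axis), with 1 point per mouse, GermFree in green and ConvR in purple, and bars for the mean ± SD. Igh stands highest in Colon, where the 7 GermFree mice lie between 1436 and 1640.0 CPM, and ConvR mouse 3 lies lowest at 890.1 CPM, while Igk varies little between sections.

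The higher Colon level was spread along the V and D segments, no region touched a J segment, and the summed difference was small at the constant genes. The 44 regions of V segments farther from the D segments summed to 1066 CPM in Colon and 833 CPM in Ileum, with a mean log2 of 0.36 and the Colon higher in 12 of 12 mice. The 11 regions of V segments nearer to the D segments summed to 272 CPM in Colon and 212 CPM in Ileum, with a mean log2 of 0.38 (12 of 12 mice). The 4 regions among the D segments summed to 39.7 CPM in Colon and 30.5 CPM in Ileum (log2 0.39, 10 of 12 mice). The 7 regions among the constant genes summed to 57.7 CPM in Colon and 54.2 CPM in Ileum, with a mean log2 of 0.10 (SD 0.25, 9 of 12 mice). Whether the stretches differ from each other was not tested.

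Tested region by region with edgeR's quasi-likelihood test over all regions (Benjamini-Hochberg adjusted p under 0.05 taken as a change), Colon against Ileum changed at 27 of the 188 regions, 26 higher and 1 lower in Colon. Over all regions 2.19% changed, with 1.48% higher and 0.708% lower in Colon, and among the 20030 regions with at least the median level of Igh regions 4.99% were higher. Igh gave 16 of the higher regions, Tcra/Tcrd 6, Igk 2 and Tcrg 2, and the lower region was at Igk. Of the 70 Igh regions, 64 had a log2 difference above 0, against 49.3% of all regions, and their median difference was 0.34, against -0.00 over all regions. At an unadjusted p under 0.05 the test counted 47 of the 70 Igh regions, all 47 higher in Colon, and 77 of all 188, against 15.2% of all regions. The higher regions had log2 differences between 0.32 and 0.78, and 23 of the 26 were at least as wide as the median Igh region. With the mouse as a block, which pairs the sections of each animal, 41 regions were higher and 2 lower in Colon, 30 of them at Igh (3.6% of all regions called, 2.4% higher). The count was 9 without GermFree mouse 4, 13 without ConvR mouse 5 and 15 without ConvR mouse 4, of which Igh gave 7, 9 and 8. Without ConvR mouse 3, Igh gave 25.

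Colon against Duodenum gave 22 changed regions, all 22 higher in Colon, against 1.21% of all regions changed (0.91% higher, 0.3% lower) and 3.3% higher among regions with at least the median Igh level. Igh gave 16, Tcra/Tcrd 3, Igk 2 and Tcrg 1. The median Igh difference was 0.32, with 65 of 70 regions above 0 (49.5% over all regions). At an unadjusted p under 0.05 the test counted 44 of the 70 Igh regions, 43 of them higher in Colon, and 77 of all 188, against 13.2% of all regions. Of the called regions, 19 were called against both Ileum and Duodenum, 13 of them at Igh, and these comparisons share the Colon libraries. With the mouse as a block 39 regions were higher and 1 lower, 28 of them at Igh (2.44% of all regions called, 1.75% higher). The count without a block rested on single mice: it was 0 without ConvR mouse 5, when the calls over all regions fell to 17, 4 without GermFree mouse 6, 6 without ConvR mouse 1 or 4, 9 without GermFree mouse 2 and 14 without GermFree mouse 4. The Igh count was then 0, 3, 4 (ConvR mouse 1), 5 (ConvR mouse 4) and 7 (GermFree mouse 2).

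**Figure D2:**
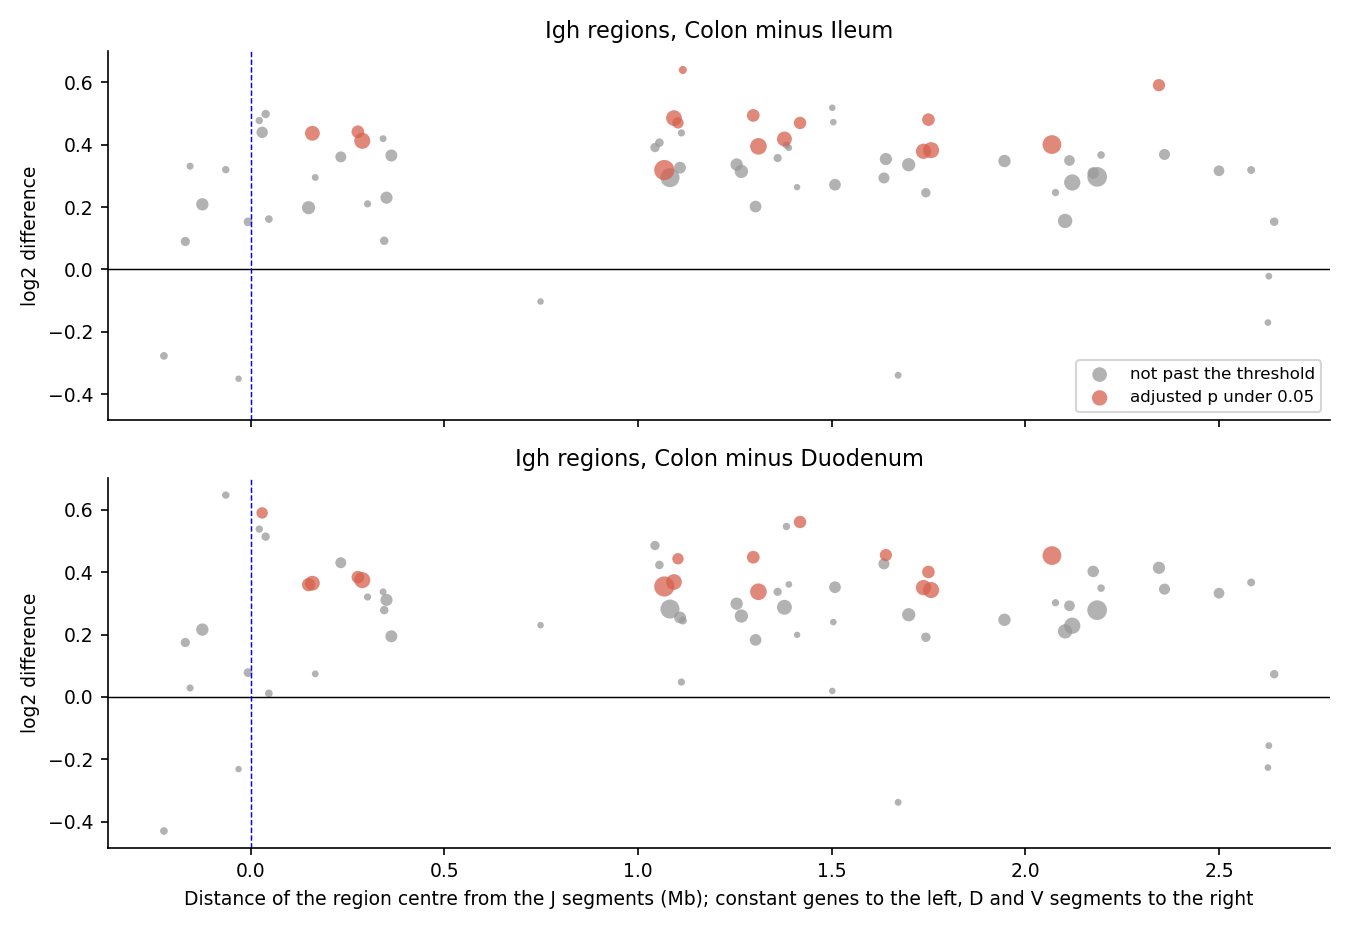
log2 difference of each Igh region (vertical axis) by the distance of its centre from the J segments in Mb (horizontal axis), Colon minus Ileum above and Colon minus Duodenum below, with point area growing with region width. Red points passed an adjusted p under 0.05 and lie among the D and V segments. The 7 regions at the constant genes, left of the dashed line, include no called region. Over all regions 2.19% passed against Ileum and 1.21% against Duodenum.

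Among the V segments, the region over Ighv10-3 (chr12:114518196-114524317) held 32.7, 49.1 and 57.9 CPM in Colon (lowest, median and highest of 12 mice), against 13.8, 35.8 and 49.1 CPM in Ileum. The Colon was higher in 11 of 12 mice although the ranges overlapped (log2 0.49, SE 0.09, edgeR adjusted p = 0.00241). The region over Ighv2-6 averaged 76.5 ± 9.15 CPM in Colon, against 57.3 ± 12.1 CPM in Ileum and 59.0 ± 11.3 CPM in Duodenum (SD, n = 12). Its Colon level was above both in 12 of 12 mice, by 0.41 over Ileum (SE 0.09, edgeR adjusted p = 0.00331) and 0.37 over Duodenum (SE 0.08, edgeR adjusted p = 0.0120). The densest Igh region, 773 bp from Ighv5-12, averaged 45.7 ± 8.32 CPM in Colon and 34.4 ± 8.73 CPM in Ileum, a log2 difference of 0.44 with the Colon higher in 12 of 12 mice.

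Further into the V segments, the region over Ighv1-21-1 and Ighv1-21 (chr12:114735912-114742859) held 30.1, 52.6 and 57.6 CPM in Colon, against 18.8, 37.7 and 50.3 CPM in Ileum (lowest, median and highest). Its Colon level was higher in 12 of 12 mice (log2 0.39, edgeR adjusted p = 0.00539). The region over Ighv1-63 (chr12:115492672-115501713) averaged 65.8 ± 12.8 CPM in Colon, against 50.3 ± 11.7 CPM in Ileum and 47 ± 13.4 CPM in Duodenum, with log2 differences of 0.40 and 0.45. The region 925 bp from Ighv1-33 (chr12:114845008-114848559) averaged 19.9 ± 3.66 CPM in Colon and 14 ± 4.20 CPM in Duodenum (log2 0.56, SE 0.12, edgeR adjusted p = 0.00820). The widest region, over Ighv10-2, averaged 74.2 ± 10.4 CPM in Colon and 60.0 ± 13.7 CPM in Ileum, and passed against both Ileum (log2 0.32) and Duodenum (0.35). None of the 10 regions with the smallest p against Duodenum passed without ConvR mouse 5, when their edgeR adjusted p lay between 0.0597 and 0.147.

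At the D segments, the region over Ighd2-7 (chr12:113456503-113459413) held 9.46, 16.3 and 19.9 CPM in Colon, against 4.77, 9.41 and 19.4 CPM in Duodenum (lowest, median and highest of 12 mice). The Colon was higher in 11 of 12 mice, by 0.59 on the log2 scale (SE 0.14, edgeR adjusted p = 0.0192), which did not pass without GermFree mouse 6 (adjusted p = 0.0514) or ConvR mouse 2 (0.0697) or 5 (0.117). Against Ileum (11.6 ± 3.41 CPM) its difference of 0.44 did not pass (edgeR adjusted p = 0.0718). None of the 7 regions among the constant genes passed in any comparison. Over all regions 2.19% passed against Ileum and 1.21% against Duodenum, so no call among 7 differs little from that background. The region at Ighm, the constant gene of the first antibody class a B cell makes, averaged 7.65 ± 1.69 CPM in Colon and 6.88 ± 1.58 CPM in Ileum (log2 0.15, edgeR adjusted p = 0.705). That at Igha, the constant gene of IgA, averaged 10.1 ± 1.81 CPM in Colon and 9.68 ± 2.44 CPM in Ileum (log2 0.09, edgeR adjusted p = 0.822). That at Ighg2b, an IgG constant gene, averaged 19.4 ± 3.08 CPM in Colon and 17.3 ± 4.99 CPM in Ileum (log2 0.21, edgeR adjusted p = 0.377). That at Ighe, the constant gene of IgE, averaged 5.13 ± 1.31 CPM in Colon and 4.01 ± 1.62 CPM in Ileum, with the Colon higher in 10 of 12 mice. Relative to its level, this was a larger difference than at Ighm, Igha or Ighg2b.

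The Igh levels moved with a class of regions found all over the genome. Outside the 6 spans, 720 autosomal regions were at least 2646 bp wide and held at least 6 CPM per kb. Of these, 49.2% were higher in Colon than in Ileum by the same test and 37.5% higher in Colon than in Duodenum, with median log2 differences of 0.31 and 0.29. Among all regions of that width outside the spans, on any chromosome, 4.77% were higher in Colon than in Ileum, and among those under 6 CPM per kb 1.96%. At Igh, 8 of 13 wide regions at or above 6 CPM per kb were higher in Colon than in Ileum, as were 7 of 22 wide regions (31.8%) below that density. The summed level of the 720 regions was higher in Colon than in Ileum in 12 of 12 mice (mean log2 0.26, SD 0.21). They were also low in the same libraries. GermFree mouse 4 held 39523 CPM in Ileum, where the GermFree median was 58239 CPM, and ConvR mouse 3 held 44654 CPM in Colon, where the ConvR median was 60052 CPM. Divided by these regions, a scaling chosen after the levels were seen, Igh stood higher in Colon than in Ileum by a mean log2 of 0.09 (SD 0.08, lowest 0.00, highest 0.24, 12 of 12 mice). Against Duodenum the scaled difference was 0.08 (10 of 12 mice) and against Jejunum 0.02 (8 of 12 mice). The same scaling turned the mean Colon over Ileum difference of every other locus, taken as a whole, below 0. It was -0.15 at Igk (Colon higher in 1 of 12 mice), -0.23 at Igl (3 of 12), -0.08 at Tcra/Tcrd (3 of 12), -0.03 at Tcrb (5 of 12) and -0.05 at Tcrg (7 of 12). The dividing regions were themselves higher in Colon by a mean log2 of 0.26, so any smaller difference turns below 0 by construction. The signs therefore say nothing further about these loci, whose median regions were narrower (879 bp at Igk to 1217.5 bp at Tcrb). The part of this class of regions in the Igh result was not tested beyond that scaling.

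**Figure D3:**
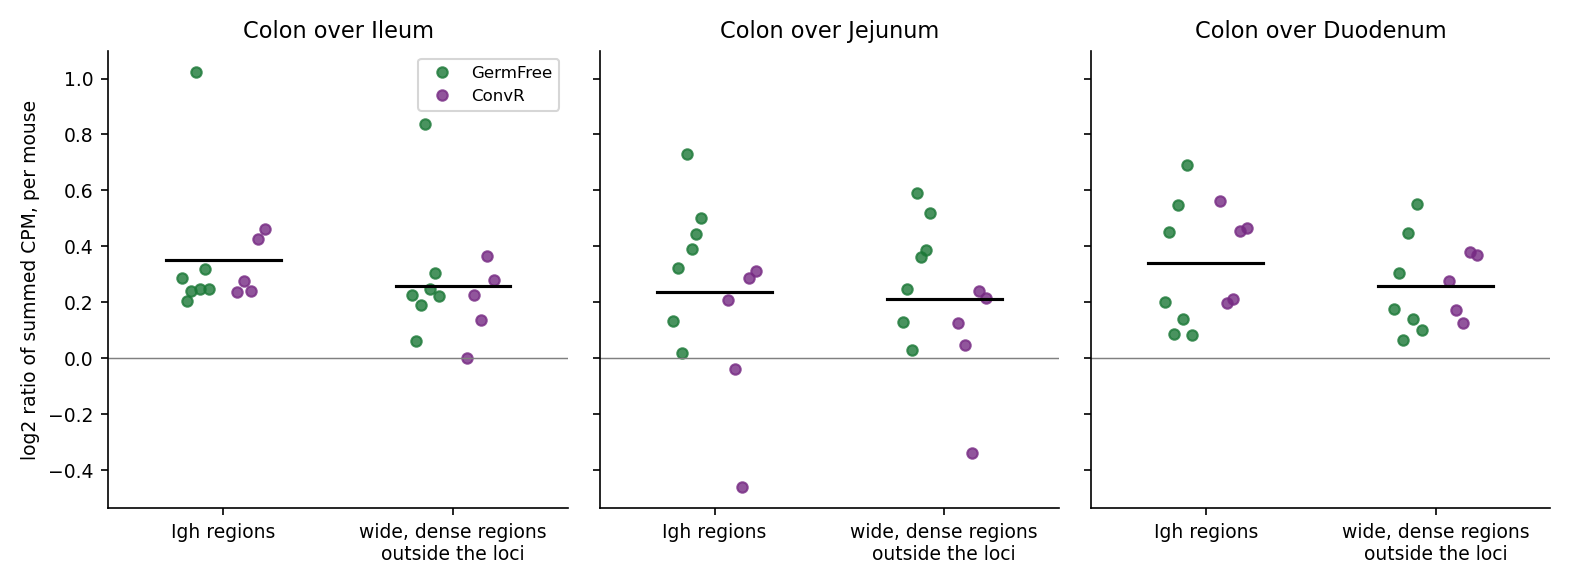
log2 ratio of summed CPM of Colon over Ileum, Jejunum and Duodenum (vertical axis, 1 point per mouse, GermFree in green and ConvR in purple, line at the mean of 12 mice) for the Igh regions and for the 720 wide, densely captured autosomal regions outside the loci. Both sets lie above 0 in nearly all mice, with means of 0.35 and 0.26 for Colon over Ileum.

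At Tcra/Tcrd the regions called higher in Colon all lay among the V segments. The 30 regions of the Tcra V segments summed to 395 CPM in Colon and 324 CPM in Ileum, with a mean log2 of 0.29 and the Colon higher in 12 of 12 mice. The 11 regions at the Tcra J segments and C summed to 75 CPM in Colon and 77.6 CPM in Ileum (log2 -0.05, Colon higher in 4 of 12 mice). The 9 regions at and before the Tcrd D, J and C segments summed to 71.6 CPM in Colon and 73.1 CPM in Ileum (log2 -0.03, 5 of 12 mice). Region by region, 6 of 30 V regions were higher in Colon than in Ileum (1.48% of all regions). All but the narrow one near Trav4-4-dv10 were at least 3149 bp wide, and 4.77% of regions of at least 2646 bp outside the spans were higher. Those over Trav15-1-dv6-1 and nearest to Trav3-2 also held at least 6 CPM per kb. Of such wide, densely captured autosomal regions 49.2% were higher. Against Duodenum 3 of 30 were higher in Colon (0.91% of all regions). Of the 25 others, 0 changed against either. Over all regions 2.19% and 1.21% changed, so 0 among 25 differs little from that background. The whole locus averaged 517 CPM in Duodenum, 531 CPM in Jejunum, 521 CPM in Ileum and 588 CPM in Colon, and the Colon exceeded the Ileum in 10 of 12 mice (mean log2 0.18, SD 0.15). The log2 ratio of its section means was 0.18, and 0.14 without GermFree mouse 4. Divided by the wide, densely captured regions, the direction for the whole locus turned, with a mean log2 of -0.08 over Ileum (Colon higher in 3 of 12 mice) and -0.07 over Duodenum (2 of 12 mice). The V segments were not scaled alone, and their mean log2 of 0.29 over Ileum was not below the 0.26 of the dividing regions.

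The region over Trav15-1-dv6-1 (chr14:53559829-53563497), a V segment that can join the alpha or the delta chain, held 21.5, 30.0 and 39.3 CPM in Colon, against 14.4, 24.2 and 29.5 CPM in Ileum (lowest, median and highest). The Colon was higher in 9 of 12 mice (log2 0.46, SE 0.11, edgeR adjusted p = 0.00813), and the region did not pass without GermFree mouse 4 (adjusted p = 0.0848). The region over Trav13-1 averaged 43.2 ± 9.19 CPM in Colon and 32.4 ± 5.65 CPM in Ileum (log2 0.39, 11 of 12 mice). The largest Colon difference among all 188 regions in either comparison was at a narrow one of 425 bp, chr14:53684415-53684839, 238 bp from Trav4-4-dv10. It averaged 6.04 ± 1.96 CPM in Colon, against 3.56 ± 1.55 CPM in Ileum and 2.94 ± 0.702 CPM in Duodenum, with log2 differences of 0.78 and 1 (SE 0.21 each) and the Colon higher in 11 of 12 mice against each. It held few counts, so its size is imprecise.

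The whole Tcrg locus averaged 76.1 CPM in Duodenum, 75.1 CPM in Jejunum, 72.5 CPM in Ileum and 84.0 CPM in Colon. Colon over Ileum had a mean log2 of 0.21 (SD 0.22), with the Colon higher in 9 of 12 mice. GermFree mice averaged 0.30 and ConvR mice 0.08, and whether the models differ was not tested. Only the whole locus was divided by the wide, densely captured regions. The 3 regions among the gene segments summed to 39.2 CPM in Colon and 29.0 CPM in Ileum, a mean log2 of 0.44 with the Colon higher in 12 of 12 mice. The 7 regions over the flanking genes, among them Amph and Stard3nl, summed to 44.7 CPM in Colon and 43.5 CPM in Ileum (log2 0.03, 6 of 12 mice). The region 6401 bp from Trgv3 (chr13:19233958-19236444) held 10.3, 15.3 and 17.2 CPM in Colon, against 4.38, 10.1 and 12.5 CPM in Ileum. The Colon was higher in 12 of 12 mice (log2 0.59, SE 0.13, edgeR adjusted p = 0.00644), and higher than Duodenum by 0.50 (edgeR adjusted p = 0.0324). The region over Trgc2, a gamma chain constant gene, averaged 17.9 ± 4.45 CPM in Colon and 13.3 ± 2.61 CPM in Ileum (log2 0.46, edgeR adjusted p = 0.0183, 11 of 12 mice).

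At Igk the locus as a whole differed little between sections, with 490 CPM in Duodenum, 492 CPM in Jejunum, 489 CPM in Ileum and 526 CPM in Colon. Colon stood above Ileum by a mean log2 of 0.11 (SD 0.08, 11 of 12 mice) in CPM and below it by -0.15 (Colon higher in 1 of 12 mice) once divided by the wide, densely captured regions, and the median Igk region had a log2 difference of -0.01. The wide region chr6:67671041-67681064 held 45.6, 81.0 and 100.6 CPM in Colon, against 36.7, 63.4 and 76.2 CPM in Ileum (log2 0.41, SE 0.09, edgeR adjusted p = 0.00452, Colon higher in 11 of 12 mice). The next one, chr6:67687196-67696626, of 9431 bp and 14548 bp from Igkv14-134-1, averaged 68.5 CPM in Colon and 52.8 CPM in Ileum (log2 0.38, edgeR adjusted p = 0.0128, 12 of 12 mice). Both lie at the end of the V segments away from Igkc. Both also meet the width and density limits of the wide, densely captured regions, of which 49.2% outside the loci were higher in Colon than in Ileum. Close to them, the 567 bp region chr6:67743005-67743571 fell to 3.37 ± 1.72 CPM in Colon, against 5.47 ± 2.06 CPM in Ileum (log2 -0.75, SE 0.21, edgeR adjusted p = 0.0346). It was higher in Colon in 2 of 12 mice, and leaving out any of 6 mice (ConvR 2, 4 or 5, GermFree 3, 4 or 6) raised its adjusted p to between 0.0522 and 0.134. The region over Igkc and the J segments averaged 20.8 ± 4.48 CPM in Colon and 19.4 ± 3.08 CPM in Ileum (log2 0.15, edgeR adjusted p = 0.508).

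**Figure D4:**
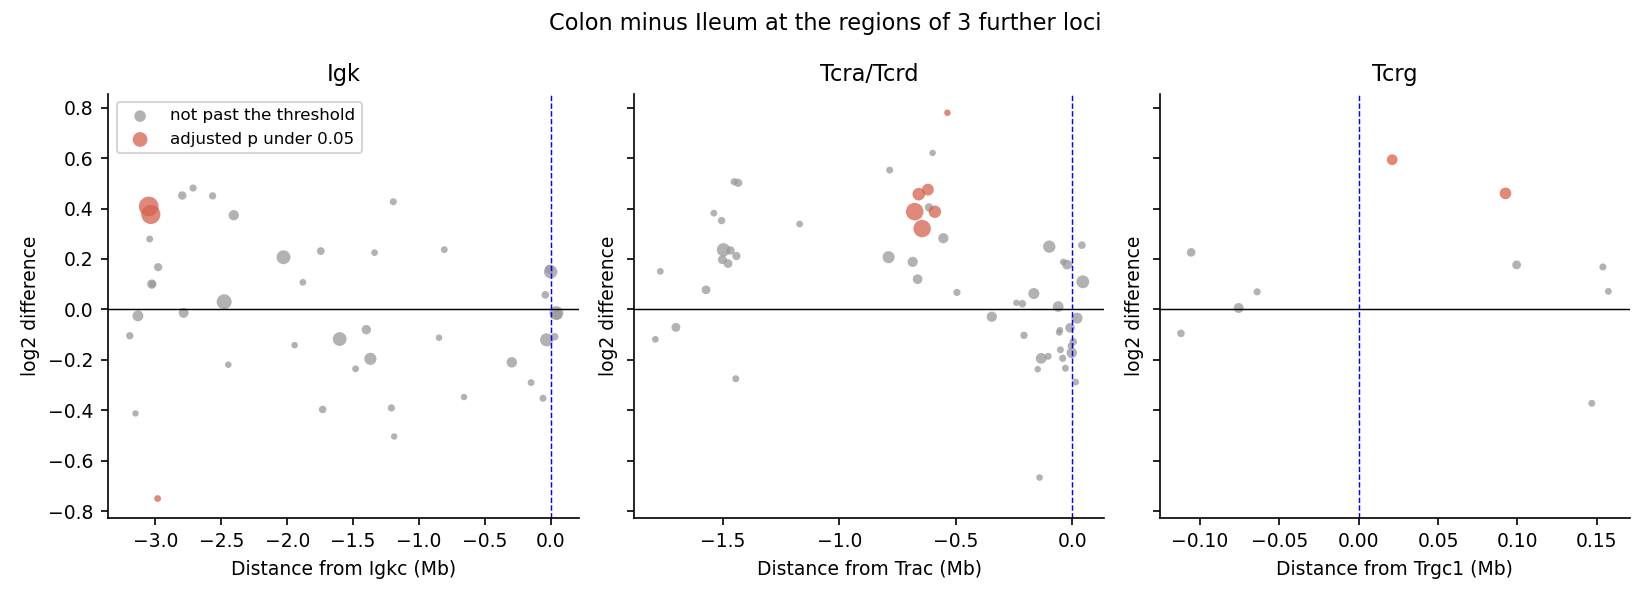
Colon minus Ileum log2 difference of each region (vertical axis) at Igk, Tcra/Tcrd and Tcrg by its distance in Mb from Igkc, Trac or Trgc1 (horizontal axis, dashed line at 0), with point area growing with region width and red for an adjusted p under 0.05. The 6 called Tcra regions lie together among the V segments, and the 3 called Igk regions lie together at the far end from Igkc.

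The smaller loci gave no call. Tcrb averaged 63.7 CPM in Duodenum, 68.7 CPM in Jejunum, 64.6 CPM in Ileum and 75.2 CPM in Colon, with the Colon above the Ileum in 9 of 12 mice (mean log2 0.23, SD 0.30), and 0 of its 8 regions passed in any comparison. Its highest region, near Trbv21, averaged 19.3 ± 4.30 CPM in Colon and 16.3 ± 3.62 CPM in Ileum. The 2 Igl regions summed to 15.0 CPM in Colon and 14.6 CPM in Ileum (mean log2 0.03, SD 0.54, 7 of 12 mice), a difference well inside the spread.

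Among the remaining section comparisons edgeR called 0 of the 188 regions. Colon against Jejunum gave 0 calls over all regions as well (0% called), and 41 members at an unadjusted p under 0.05, 38 of them higher in Colon (8.62% of all regions), and DESeq2 called 0. Differences above 0 were found at 140 members, against 50.5% of all regions. The 3 members with the smallest p were the narrow Tcra region near Trav4-4-dv10 (log2 0.76), the one over Ighv1-21-1 (0.30) and the one over Trav15-1-dv6-1 (0.35), with edgeR adjusted p between 0.204 and 0.239. With the mouse as a block 5 members were higher in Colon, 2 of them at Igh (0.338% of all regions called, 0.299% higher), and without ConvR mouse 3 the fit with no block called 7, of which 4 were at Igh. Ileum against Duodenum (0.00209% of all regions called) gave 8 members at an unadjusted p under 0.05, against 4.75% of all regions, and differences above 0 at 80 members, against 50.6%. Ileum against Jejunum (0% called) gave 26, against 6.76%. There 10 were at Igh, all lower in Ileum, and 12 of 70 Igh regions had a difference above 0 (median -0.14), against 50.6% of all regions. Jejunum against Duodenum (0% called) gave 10, against 5.41%, with 58 of 70 Igh regions above 0 (median 0.11), against 49.7% of all regions. DESeq2 also called 0 members in these, as did edgeR with the mouse as a block, when 0.00209%, 0.00104% and 0.0156% of all regions passed in these 3 comparisons in the order given.

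Between the mouse models no region passed in the pooled sections or in any single one. Most regions had a somewhat higher level in GermFree mice in the pooled sections and in each section other than Jejunum. With the counts of its 4 sections added up for each mouse, edgeR called 0 of 188 regions, against 0.475% of all regions, and DESeq2 called 0, against 0.38%. At an unadjusted p under 0.05 there were 35, of which 32 were higher in GermFree mice, against 6.63% of all regions. Of the 188 regions 141 had a log2 difference above 0 (49.5% over all regions), with a median of 0.11, against -0.00 over all regions. Such differences above 0 were found at 62 of 70 Igh regions (median 0.14), 39 of 55 Tcra/Tcrd regions (0.09) and 8 of 8 Tcrb regions (0.17), and 24 of 43 Igk regions (0.03).

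In single sections edgeR called 0 of 157 tested members in Duodenum (0.463% of all regions), 0 of 165 in Jejunum (0.343%), 0 of 174 in Ileum (0.365%) and 0 of 165 in Colon (0.542%), and DESeq2 called 0 in each, against 0.226% of all regions in Duodenum, 0.152% in Jejunum, 0.17% in Ileum and 0.342% in Colon. At an unadjusted p under 0.05, 31 members differed in Duodenum, 29 of them higher in GermFree mice (6.99% of all regions), and 30 in Colon, 29 of them higher (7.44%). Jejunum gave 12 (5.36%) and Ileum 17 (5.12%). Differences above 0 were found at 118 of 157 members in Duodenum (49.5% of all regions), 80 of 165 in Jejunum (49.4%), 120 of 174 in Ileum (50.2%) and 119 of 165 in Colon (49.3%). Median Igh differences were 0.26 in Duodenum, -0.08 in Jejunum, 0.16 in Ileum and 0.19 in Colon. The joint edgeR test of whether the model difference varied with section called 0 members (0% of all regions), with 14 at an unadjusted p under 0.05 against 4.95% of all regions, and DESeq2 called 0.

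Summed over its regions, Igh in Duodenum lay between 921 and 1546 CPM in GermFree mice (median 1351), against 1012, 1221, 769, 1127 and 991 CPM in ConvR mice 1 to 5. In Jejunum GermFree mice lay between 982 and 1419 CPM (median 1169), against 1294, 1439, 1225, 1266 and 1104 CPM in ConvR mice. In Ileum GermFree mice lay between 802 and 1382 CPM (median 1268), against 1268, 1158, 753, 1150.1 and 995 CPM. In Colon GermFree mice lay between 1436 and 1640.0 CPM (median 1556), against 1494, 1402, 890.1, 1546 and 1369.8 CPM. The models overlapped in each section. Averaged over sections, GermFree mice held 1307 ± 123 CPM and ConvR mice 1174 ± 165 CPM (SD, n = 7 and 5), a log2 ratio of 0.16, and 4 of the 7 GermFree averages exceeded every ConvR average. Without ConvR mouse 3 the ratio was 0.08, and in the sections 0.21 in Duodenum, against 0.30 with it, 0.09 in Ileum, against 0.19, and 0.09 in Colon, against 0.21. The wide, densely captured regions outside the loci had a GermFree over ConvR ratio of 0.15, and Igh divided by them one of 0.01, and then 0 of the 7 GermFree averages exceeded every ConvR average.

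The other loci were compared between models in the same way. Averaged over sections, Igk held 507 ± 21.4 CPM in GermFree and 489 ± 26.9 CPM in ConvR mice (log2 0.05), Tcra/Tcrd 554 ± 22.3 CPM in GermFree and 519 ± 29.6 CPM in ConvR mice (0.09), and Tcrg 79.3 ± 3.9 CPM in GermFree and 73.5 ± 5.47 CPM in ConvR mice (0.11). Tcrb held 71.7 ± 3.97 CPM in GermFree and 63.0 ± 4.80 CPM in ConvR mice (0.19), and 5 of the 7 GermFree averages exceeded every ConvR average. At Tcrg the difference was largest in Duodenum, with 82.4 ± 7.40 CPM in GermFree and 67.2 ± 9.80 CPM in ConvR mice (0.29), and in Jejunum it was -0.07. Igl held 16.9 ± 2.76 CPM in GermFree and 12.4 ± 3.03 CPM in ConvR mice in Colon (0.44), and 13.4 ± 2.96 CPM in GermFree and 16.2 ± 2.29 CPM in ConvR mice in Ileum (-0.27). Without ConvR mouse 3 the log2 ratio was 0.02 at Igk, 0.06 at Tcra/Tcrd, 0.15 at Tcrb and 0.08 at Tcrg over sections, and -0.04 at Tcrg in Jejunum. Divided by the wide, densely captured regions, the ratio was -0.10 at Igk, -0.06 at Tcra/Tcrd, 0.04 at Tcrb and -0.04 at Tcrg. The 2 Igl regions hold few counts, and their average over sections was 14.1 ± 1.78 CPM in GermFree and 14.3 ± 0.418 CPM in ConvR mice.

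**Figure D5:**
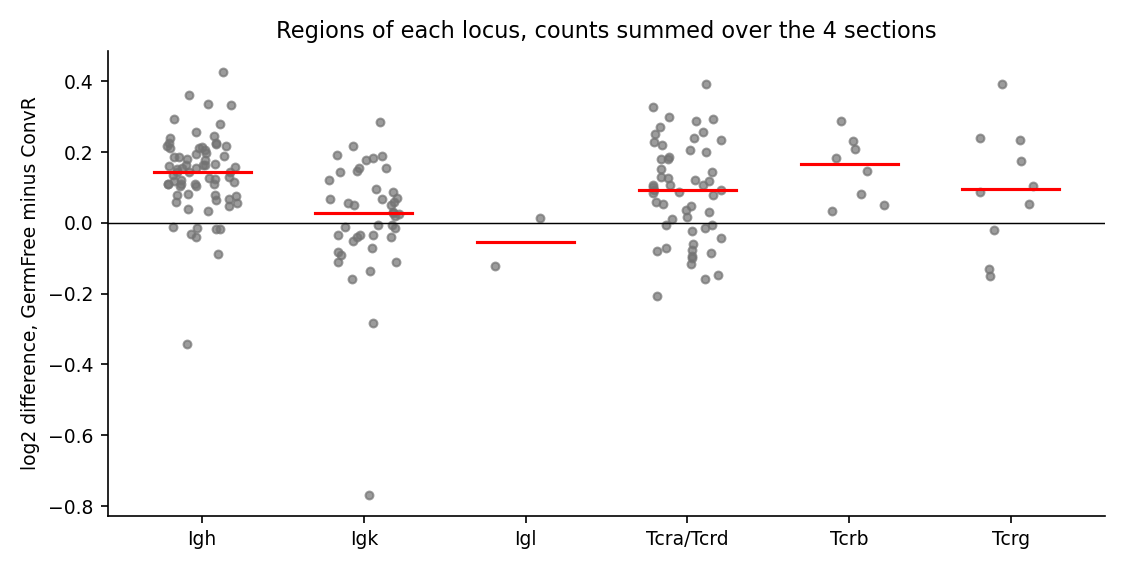
log2 difference of GermFree minus ConvR mice (vertical axis) for each region by locus (horizontal axis), from the counts of all 4 sections added up per mouse, with the red line at the median of a locus. No region passed an adjusted p under 0.05. Medians lie at 0.14 for Igh and 0.03 for Igk, and the lowest point, at -0.77, is the Igk region 6988 bp from Igkv13-57-2.

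The 3 regions with the smallest p on the summed counts lay at 3 loci. The region over Amph (chr13:19107902-19109248), which encodes the endocytosis protein amphiphysin beside Tcrg, held 7.34, 8.23 and 10.4 CPM in GermFree mice (lowest, median and highest), against 7.41, 6.25, 6.93, 5.93 and 5.96 CPM in ConvR mice 1 to 5. The groups overlapped, and the log2 difference of 0.39 (SE 0.11) had an edgeR adjusted p of 0.178. The 2677 bp region chr12:115062123-115064799, 2761 bp from Ighv8-5, averaged 15.2 ± 2.69 CPM in GermFree and 12.1 ± 1.85 CPM in ConvR mice (log2 0.33, edgeR adjusted p = 0.294), and passed without GermFree mouse 4 (adjusted p = 0.0216).

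The third was a 725 bp region of Igk, chr6:69516027-69516751, 6988 bp from the V segment Igkv13-57-2, where ConvR mice 1 and 3 stood far above all others in Duodenum, ConvR mouse 1 alone did so in Ileum, and neither did in Colon. In Duodenum GermFree mice held 3.61 to 9.31 CPM (median 4.61), against 30.0, 4.22, 19.1, 4.20 and 3.21 CPM in ConvR mice 1 to 5. In Ileum GermFree mice held 2 to 7.22 CPM (median 2.96), against 26.3, 6.40, 8.75, 2.51 and 5.14 CPM in ConvR mice. In Jejunum GermFree mice held 1.64 to 4.89 CPM (median 2.76), against 7.64, 2.73, 8.39, 2.46 and 3.48 CPM in ConvR mice. In Colon GermFree mice held 2.55 to 5.38 CPM (median 3.44), against 5.81, 3.63, 3.44, 5.38 and 4.71 CPM in ConvR mice, with the ranges overlapping. On the summed counts the log2 difference was -0.77 (SE 0.23, edgeR adjusted p = 0.218), and without ConvR mouse 4 it passed (-0.93, adjusted p = 0.0292). In Ileum it was -1.08 (adjusted p = 0.304), and passed without ConvR mouse 4 (adjusted p = 0.0238) or GermFree mouse 3 (0.0483). Without ConvR mice 1 and 3 the difference was -0.06 on the summed counts (edgeR adjusted p = 0.998) and -0.40 in Ileum (adjusted p = 1). Without ConvR mouse 1 alone it was -0.39 on the summed counts (edgeR adjusted p = 0.658) and -0.60 in Ileum (adjusted p = 0.938). Without ConvR mouse 3 alone it was -0.64 on the summed counts (edgeR adjusted p = 0.718) and -1.04 in Ileum (adjusted p = 0.549). The Ileum difference therefore rests mostly on ConvR mouse 1. ConvR mice 1 and 3 stood highest in Duodenum, so a smaller summed difference without them follows from that choice.

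Of the genes that act on the loci, 25 of 26 V(D)J recombination and class switching genes had a region within 5 kb, 87 regions in all. Against Ileum 2 of the 87 were higher in Colon and 0 lower, a share near that of all regions (1.48% higher, 0.708% lower), with a median log2 difference of -0.06. They were 1 region near Rag2 and 1 at Xrcc5, and no other region listed for either gene passed. Against Duodenum 1 of the 87 was higher, the same region near Rag2, where 0.91% of all regions were. The region within 5 kb of Rag2 (chr2:101618799-101620872), which encodes a subunit of the recombinase, averaged 16 ± 2.79 CPM in Colon, against 10.8 ± 3.06 CPM in Ileum and 11.8 ± 2.78 CPM in Duodenum. Its log2 differences were 0.48 (edgeR adjusted p = 0.0151) and 0.46 (edgeR adjusted p = 0.0315). The region at Xrcc5 (chr1:72364538-72367300), which encodes a Ku protein of DNA end joining, averaged 15.0 ± 2.80 CPM in Colon and 12.1 ± 2.86 CPM in Ileum (log2 0.41, edgeR adjusted p = 0.0356). Between models 0 of the 87 regions passed on the summed counts, against 0.475% of all regions. The receptors' partner chains, such as Cd79a and Cd3e, had 22 regions at 9 genes, and 0 passed in these comparisons, in which 2.19%, 1.21% and 0.475% of all regions were called, so counts of 0 in lists of this size differ little from that background. The same held for 17 regions at 9 T cell genes, 30 at 7 B cell genes, 16 at 4 plasma cell genes, 26 at 7 genes of the epithelium, 14 at 4 smooth muscle genes and 23 at 3 endothelial genes, and Ptprc, carried by all leukocytes, had no region. Captured DNA at a marker gene is no measure of expression, so the mix of cells in the samples was not tested.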

How the data were processed

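The authors' deposited table holds whole-number read counts per region, not normalised, for 95882 regions in 48 libraries. The deposited peak list gives positions and 1 score per region, the authors' own value, which served here as a filter in 1 alternative. Per the submitters' processing notes, the tools were cutadapt 1.4.2, featureCounts, MACS2 and Trim Galore 0.3.7, and the build was mm10. No source used here gives the aligner, how duplicate and multiply placed reads were handled, or which libraries were pooled to call peaks. Captured DNA depends on CG density as well as methylation. Sections, models and mouse numbers come from the sample labels.

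Counts were analysed over all regions with the quasi-likelihood F-test of edgeR 4.0.16 under R 4.3.3, after TMM scaling, its default filter on low counts and a trended dispersion, with p-values adjusted by Benjamini and Hochberg and a threshold of 0.05, and only regions of the 6 loci are printed. Models were compared per section on 12 libraries and once with the 4 libraries of a mouse added up, and sections over 48 libraries in 8 groups of model and section. Locus levels are sums of CPM over regions, with no test. The edgeR steps were tested on simulated data before use. The members, gene lists and tests were chosen with earlier results of these data known. Named regions are those past the threshold, up to 10 by smallest p in each direction and comparison, or the 3 with the smallest p where fewer than 3 passed, and for each locus the highest, widest, most and least densely captured regions and those over constant genes. The text gives a part of these and summarises the rest, and the wide, densely captured regions were chosen after values were seen.

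The labels pair the 4 libraries of a mouse, which come from the same animal. Over 72 such pairs the deviations from the group averages correlated at a median of 0.0201. Alternatives were the mouse as a block, 1 model alone, DESeq2 1.42.0, other scalings and filters, and leaving out each mouse in turn. Genes were placed with a RefSeq table of GRCm38.p6. Python 3.11.15, pandas 2.3.3, NumPy 2.4.6 and Matplotlib 3.10.9 were used for levels and figures.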

Additional observations from a re-analysis of the deposited data

Results flagged for a closer look

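Of 60 groups of summed locus levels (6 loci, 2 models, 4 sections and their mean), 6 held a mouse whose gap to its nearest neighbour was large for the range of the group, where chance gives about 1 in 20 groups. Of these, 4 are the same 2 libraries at 2 loci. In GermFree Ileum, mouse 4 was the lowest at Igh, with 802 CPM against 1190.2 CPM in the next mouse, and at Tcra/Tcrd, with 446 CPM against 525 CPM. In ConvR Colon, mouse 3 was the lowest at Igh, with 890.1 CPM against 1369.8 CPM in the next mouse, and at Tcra/Tcrd, with 478 CPM against 573 CPM. The other 2 were at Igl, which has 2 regions. GermFree mouse 3 had the lowest average over the 4 sections, 10.4 CPM against 13.6 CPM in the next mouse, and in ConvR Ileum mouse 1 had the highest level, 20.2 CPM against 15.9 CPM. The causes were not tested.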

How the results depend on the processing

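Leaving out each mouse in turn, the called regions numbered 9 to 37 for Colon against Ileum (Igh 7 to 25), 0 to 33 for Colon against Duodenum (Igh 0 to 23) and 0 to 7 for Colon against Jejunum (Igh 0 to 4). GermFree against ConvR gave 0 to 1 on the summed counts, in Ileum and in Colon, and 0 to 2 in Duodenum. With the mouse as a replicate block the counts were 43 (Igh 30) against Ileum, 40 (Igh 28) against Duodenum and 5 (Igh 2) against Jejunum, and the block moved no other count of calls by over 1.5 times. The fits of 1 model with the block, those with the block that left out ConvR mice 1 and 3, and the division by wide regions were added after seeing the data. With the block and ConvR mice 1 and 3 left out, Igh had 28 calls against Ileum, and 14 members (Igh 10) were called against Jejunum, where 1 was called without those mice and with no block. GermFree mice alone gave 17 calls for Colon against Ileum, 1 (Igh 1) against Duodenum and 14 (Igh 9) against Jejunum, and with the block 10 (Igh 8) against Duodenum and 29 (Igh 22) against Jejunum. ConvR mice alone gave 0 (Igh 0) against Ileum and Duodenum, and with the block 5 (Igh 3) and 3 (Igh 1). The joint test of whether the model difference varied with section called 0 regions. Mice 1 to 4 of both models share a title code as well as a number, and the labels do not say what the code marks. The code as a replicate block gave 1 call on the summed counts, the Igk region near Igkv13-57-2, and the number gave 0. Deviations of mice that share a code correlated at 0.0959 at most over 20 pairs, as did those of mice that share a number, so neither is shown to pair them.

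Of the locus levels, the log2 ratio of Igh divided by the wide, densely captured regions was 0.0915 for Colon over Ileum and 0.0805 over Duodenum. Scaled alike, Colon over Ileum, Jejunum and Duodenum gave -0.1501, -0.1123 and -0.1575 at Igk and -0.0821, -0.0684 and -0.0708 at Tcra/Tcrd, all turned in direction, as were Tcrb over Jejunum (-0.0876) and Duodenum (-0.0159) and Tcrg over Ileum (-0.0516) and Duodenum (-0.1105). Such turns follow from a divisor that was itself higher in Colon. GermFree over ConvR was then -0.0985 at Igk, -0.056 at Tcra/Tcrd, 0.0369 at Tcrb and -0.0408 at Tcrg. The median over Igk regions was -0.0113 over Ileum and 0.0073 over Duodenum, and Igk regions on gene segments alone gave -0.0086 over Duodenum. With gene segments alone, Tcrb was left with the region over Trbj1-1 and Trbj1-2, and gave 0.0282 between models and 0.38 for Colon over Jejunum. Tcrg was left with the region over Trgc2 and gave 0.43 for Colon over Ileum. These values therefore rest on a single region each. Tcrg gave 0.25 between models with scores at or above the median. The causes were not tested, and Igl could not be given on gene segments alone. No called region changed direction in any alternative. Depth limits single regions, at a median of 16 counts per library, and narrow or weakly captured regions most. Capture does not separate methylation, CG density and copy number, and regions high in ConvR mice alone may be missing from the list.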
